A study of Homo sapiens with 6 samples.

Results

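The dual-specificity MAPK phosphatase genes DUSP1, DUSP4, DUSP5, DUSP6, DUSP8 and DUSP10 and the Sprouty and SPRED genes SPRY2, SPRY4, SPRED1 and SPRED2 were described across HEK293 cells in which circular RNAs had been targeted by siRNA. These 10 genes were taken by symbol from a count table of 63677 genes, and all 10 passed the filter on low counts that left 22331 genes for testing. The comparisons ask how the mRNA levels of these negative regulators of MAPK signalling differed when circRAB3IP or circCAMSAP1 was targeted.

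HEK293 is a human embryonic kidney line kept in culture. The siRAB3IP cells received an siRNA aimed at circRAB3IP, a circular RNA of the RAB3IP gene, the siCAMSAP1 cells one aimed at circCAMSAP1, a circular RNA of the CAMSAP1 gene, and the Control cells an NTC siRNA, which the labels spell out as no template control. All 3 groups were transfected with Lipofectamine RNAiMAX and lysed 48 hours later, and poly(A) RNA was sequenced in 2 libraries a group. The cells carried no label of another genotype or drug. The labels do not state separate cultures for the 2 libraries of a group, so p-values reflect the spread of these libraries alone, and that spread may be a technical one.

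MAP kinases are switched on by phosphorylation of a threonine and a tyrosine in their activation loop, and dual-specificity phosphatases switch them off by removing both phosphates. Many of these phosphatase genes are themselves transcribed in response to MAPK signalling, which closes a negative feedback loop. Sprouty and SPRED proteins act further upstream, between receptor tyrosine kinases and RAF, and SPRED proteins bring the RAS inhibitor neurofibromin to the membrane.

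The libraries held 37379217 to 39637733 fragments assigned to genes, with 13.0% to 14.9% of them in the 10 most abundant genes. In 4 of the 6 libraries the title of the sample record names another group than the authors' deposited tables do, and the genotype entries give the knockdown names the other way round from the titles. The groups here follow the names in the deposited tables, whose 8 normalized columns each matched 1 count column, and which names are right is not given in the sources used here. Grouped by title, edgeR gave 0 calls among 22331 genes in each comparison, with unadjusted p under 0.05 for 330 genes in siRAB3IP against Control, 437 in siCAMSAP1 against Control and 456 between the knockdowns, and DESeq2 called 0, 1 and 0. Every change reported below rests on the grouping of the deposited tables. Of 7 HEK293 markers read, 5 averaged at least 1 CPM (fragment counts scaled to library size), and the blood, liver, endothelial and squamous epithelial markers all averaged below that level. COL1A1 and COL3A1 of 3 fibroblast markers and DES of 2 muscle markers were at or above it. In bulk RNA, fewer cells of a type and less RNA per cell cannot be told apart. The linear host transcripts were close to Control. In siRAB3IP the log2 fold changes were 0.17 ± 0.08 (SE) for RAB3IP and 0.16 ± 0.07 for CAMSAP1 (edgeR adjusted p 0.225 and 0.187). With a term for the replicate number that of CAMSAP1 passed (0.16, edgeR adjusted p 0.0314). In siCAMSAP1 the log2 fold changes were -0.03 ± 0.08 for RAB3IP and 0.02 ± 0.07 for CAMSAP1. Poly(A) libraries do not read the circular RNAs, so these values check neither knockdown.

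The sequences before the start sites are shown for 3 of the phosphatase genes, since DUSP1 and DUSP8 held the full cyclic AMP response element, TGACGTCA, and DUSP10 did not. The windows run from 250 bases before to 50 bases after the RefSeq start of transcription, 300 bases in all, on build GRCh38.p14, 5′ to 3′ on the minus strand, where all 3 genes lie. Capitals mark each TGACG or its reverse complement CGTCA, and where these overlap they spell the full element. The windows are chr5:172771146-172771445 for DUSP1, chr11:1572222-1572521 for DUSP8 and chr1:221742040-221742339 for the first of the 2 DUSP10 starts.
DUSP1: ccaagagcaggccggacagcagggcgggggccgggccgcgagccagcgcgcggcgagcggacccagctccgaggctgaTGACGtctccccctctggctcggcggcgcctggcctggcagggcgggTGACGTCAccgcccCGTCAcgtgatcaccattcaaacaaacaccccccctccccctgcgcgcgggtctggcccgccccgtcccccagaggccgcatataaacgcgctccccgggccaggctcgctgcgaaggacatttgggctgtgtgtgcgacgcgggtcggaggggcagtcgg
DUSP8: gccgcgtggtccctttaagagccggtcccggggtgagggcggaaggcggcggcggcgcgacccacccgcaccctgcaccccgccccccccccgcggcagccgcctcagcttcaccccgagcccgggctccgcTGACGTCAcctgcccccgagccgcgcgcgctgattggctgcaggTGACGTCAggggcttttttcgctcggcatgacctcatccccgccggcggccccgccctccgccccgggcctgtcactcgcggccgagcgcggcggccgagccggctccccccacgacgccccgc
DUSP10: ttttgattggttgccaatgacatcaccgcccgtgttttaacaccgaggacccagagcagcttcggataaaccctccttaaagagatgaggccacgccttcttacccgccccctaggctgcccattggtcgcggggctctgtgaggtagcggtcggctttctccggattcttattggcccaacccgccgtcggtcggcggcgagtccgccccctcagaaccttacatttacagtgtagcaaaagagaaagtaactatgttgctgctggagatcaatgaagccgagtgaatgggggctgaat

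In the DUSP1 window the full element began 125 bases before the start, and in the DUSP8 window copies began 118 and 74 bases before it. Among 35116 promoter windows of the same length, 1.85% held at least 1 full element and 0.0598% held 2 or more. The windows of 8 of the 10 genes were in the RefSeq table, and those of DUSP4 and DUSP5 were not. DUSP6, DUSP10, SPRY2, SPRY4, SPRED1 and SPRED2 had no full element. The half-site TGACG alone, searched on both strands and contained in the full element, occurred in 24.6% of all windows. It was found 4 times in the DUSP1 window and 4 times in the DUSP8 window, and once each near a start of DUSP10, SPRY2, SPRY4 and SPRED2. The AP-1 letters TGANTCA occurred in 7.71% of windows and, among the 8 genes, 2 times at the second start of SPRED2. The serum response element and the NF-kB motif, in 1.29% and 11.3% of all windows, had no match in the windows of the 8 genes. A match describes letters in the sequence and is not evidence of binding.

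With circRAB3IP targeted, 4 phosphatase genes rose: DUSP8 about 2.03-fold, DUSP5 1.84-fold, DUSP10 1.53-fold and DUSP1 1.33-fold, while DUSP4, DUSP6 and all 4 Sprouty and SPRED genes did not pass the test. With circCAMSAP1 targeted, DUSP8 alone of the 10 passed, at 1.72-fold. Between the knockdowns, DUSP10, SPRY2 and DUSP1 were higher in siRAB3IP than in siCAMSAP1. The calls are those of edgeR's quasi-likelihood test at a Benjamini-Hochberg adjusted p under 0.05 over all 22331 genes.

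Set against the whole table, 4 of the 10 genes were called higher and 0 lower in siRAB3IP against Control, where 6.58% of all tested genes were called higher and 5.38% lower. In siCAMSAP1 against Control, 1 of 10 was called higher and 0 lower, where the shares were 0.519% and 0.542%. In siRAB3IP against siCAMSAP1, 3 of 10 were called higher and 0 lower, where the shares were 5.14% and 4.16%. The counts of 0 lower were from edgeR. The shares are at the adjusted p, and none is given at an unadjusted p. DESeq2 and limma-voom also called 0 of the 10 lower in every comparison, and at an unadjusted p under 0.05 edgeR gave 0 in siRAB3IP against Control, 1 in siCAMSAP1 against Control (DUSP4) and 0 between the knockdowns. The median log2 fold change of the 10 genes was 0.37 in siRAB3IP against Control, where that of all tested genes was -0.01. It was -0.15 in siCAMSAP1 against Control, where the median of all genes was 0.00, and 0.38 between the knockdowns, where it was -0.01. The comparisons against Control share the same 2 Control libraries, so their values are given side by side and are not independent.

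**Figure D1:**
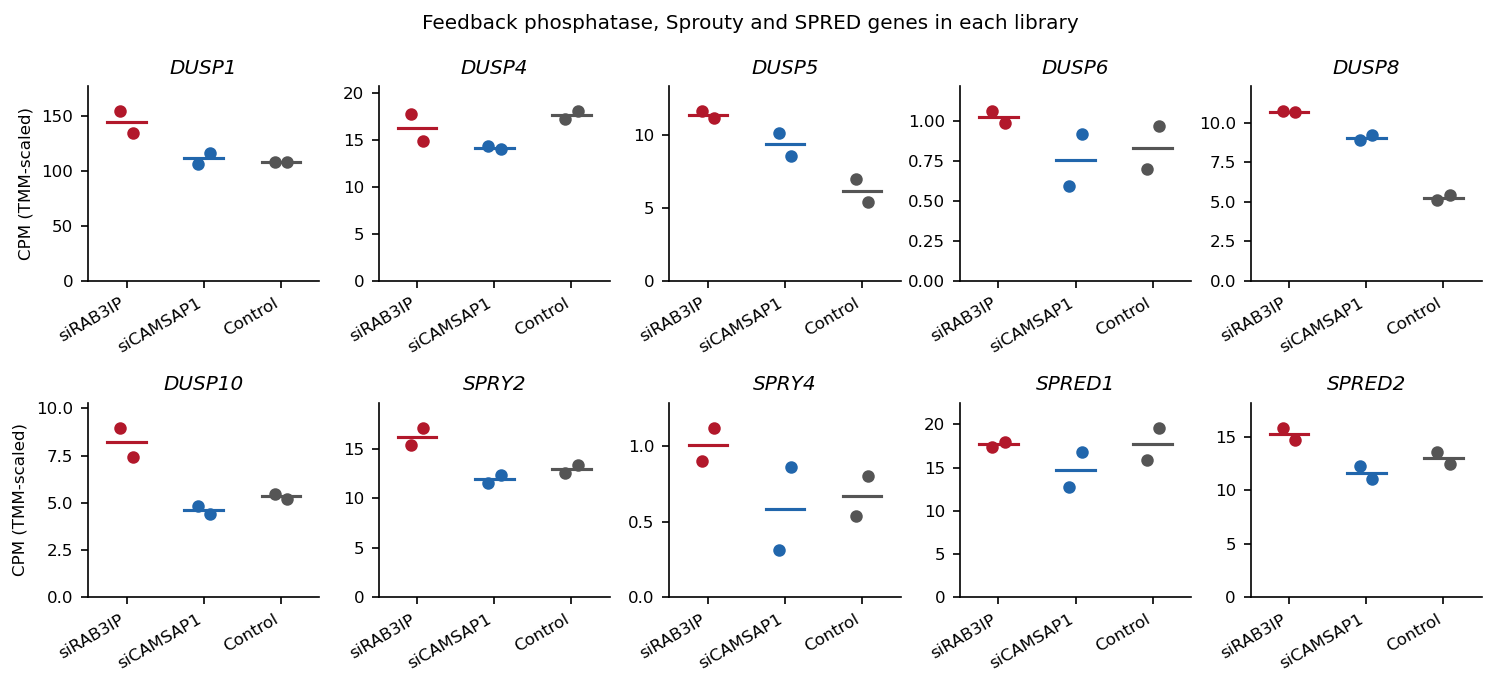
Level of each of the 10 genes in each library, in CPM after TMM scaling (vertical axes from 0, a scale per gene). Points are libraries and bars the means of 2 libraries in siRAB3IP, siCAMSAP1 and Control cells. DUSP8 lies at 10.7 CPM in both siRAB3IP libraries, at 8.92 and 9.19 CPM in siCAMSAP1 and at 5.08 and 5.44 CPM in Control.

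Per base of exon, DUSP1 stood far above the other 9 genes. Its mean over the 6 libraries was 59.98 FPKM (fragments scaled to exon length and library size), a level above that of 97.3% of tested genes. SPRY2 followed with 4.17 FPKM, DUSP5 with 3.43, SPRED2 with 2.59, DUSP4 with 2.22, SPRED1 with 2.03, DUSP8 with 1.81 and DUSP10 with 1.74 FPKM. In that run of 7 genes the ranges over the libraries of each neighbouring pair overlapped, so their order is not firm. DUSP6 and SPRY4 were near the bottom of the tested genes, at 0.188 and 0.127 FPKM, with 8.86% and 5.49% of tested genes below them. DUSP6 rested on 23 to 40 fragments a library and SPRY4 on 12 to 42, so only large changes were detectable in them at this depth.

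Among the nuclear phosphatases that stimulation induces, DUSP1 and DUSP5 rose in siRAB3IP and DUSP4 did not pass the test. DUSP1 (ENSG00000120129, hg19 chromosome 5, 172195093 to 172198198) is an immediate-early gene whose product, MKP-1, acts on p38, JNK and ERK. It had 154 and 134 CPM in the siRAB3IP libraries, 106 and 116 CPM in the siCAMSAP1 libraries and 108 and 108 CPM in the Control libraries. Both siRAB3IP libraries lay above all 4 others, and siCAMSAP1 lay on either side of Control. The log2 fold change of DUSP1 was 0.41 ± 0.09 (SE) in siRAB3IP against Control, with an edgeR adjusted p of 0.00740. It was 0.04 ± 0.09 in siCAMSAP1 against Control, with an edgeR adjusted p of 0.902. Between the knockdowns DUSP1 was higher in siRAB3IP by 0.37 ± 0.09 on the log2 scale, with an edgeR adjusted p of 0.0153. Without siRAB3IP replicate 1 the change of DUSP1 was 0.31 against Control (edgeR adjusted p 0.0996) and 0.27 against siCAMSAP1 (0.168), and without siCAMSAP1 replicate 1 it was 0.32 against siCAMSAP1 (0.126), so neither call held in those fits.

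DUSP5 (ENSG00000138166, chromosome 10, 112257596 to 112271302) encodes a phosphatase that binds ERK and retains it in the nucleus. It had 11.6 and 11.2 CPM in the siRAB3IP libraries, 10.1 and 8.58 CPM in the siCAMSAP1 libraries and 7.01 and 5.37 CPM in the Control libraries. The 3 groups did not overlap, with siRAB3IP highest and Control lowest. The log2 fold change of DUSP5 was 0.88 ± 0.15 in siRAB3IP against Control (edgeR adjusted p 0.00259), a call kept whichever library was left out. For siCAMSAP1 the value was 0.60 ± 0.15 and did not pass (edgeR adjusted p 0.0965). Without Control replicate 1, a fit with 1 lone Control library, it was 0.80 and passed. Without Control replicate 2 it was 0.41 and did not pass. The change passed with DESeq2, at 0.60 with an adjusted p of 0.0431, and with no filter on low counts (0.60, edgeR adjusted p 0.00632). It also passed with a term for the replicate number, the replicate block (0.60, edgeR adjusted p 0.00178). The labels do not say whether that number marks a shared batch. The difference between the knockdowns, 0.28 ± 0.15, did not pass (edgeR adjusted p 0.279).

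DUSP4 (ENSG00000120875, chromosome 8, 29190581 to 29208185) encodes MKP-2, a close relative of MKP-1. It had 17.8 and 14.9 CPM in the siRAB3IP libraries, 14.4 and 14.0 CPM in the siCAMSAP1 libraries and 17.3 and 18.1 CPM in the Control libraries. Here siRAB3IP overlapped Control, and both siCAMSAP1 libraries were the lowest of the 6. The log2 fold changes of DUSP4 were -0.11 ± 0.11 in siRAB3IP and -0.31 ± 0.11 in siCAMSAP1 against Control, with edgeR adjusted p of 0.596 and 0.272. With the replicate block the siCAMSAP1 change passed (-0.32, edgeR adjusted p 0.0434).

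DUSP6 (ENSG00000139318, chromosome 12, 89741009 to 89747048) encodes MKP-3, a cytoplasmic phosphatase selective for ERK and often read as an index of ERK activity. It had 1.06 and 0.985 CPM in the siRAB3IP libraries, 0.593 and 0.914 CPM in the siCAMSAP1 libraries and 0.696 and 0.968 CPM in the Control libraries. Both siRAB3IP libraries were the highest, by a narrow margin over 1 Control library. Its log2 fold changes of 0.29 ± 0.34 in siRAB3IP, -0.15 ± 0.35 in siCAMSAP1 and 0.44 ± 0.34 between the knockdowns did not pass (edgeR adjusted p 0.650, 0.917 and 0.497).

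Both phosphatases directed at JNK and p38 rose in siRAB3IP, and DUSP8 had the highest fitted fold of the 10 genes there. DUSP8 (ENSG00000184545, chromosome 11, 1575274 to 1593150) encodes a phosphatase that acts on JNK and p38 and is best known from brain and heart. It had 10.7 and 10.7 CPM in the siRAB3IP libraries, 8.92 and 9.19 CPM in the siCAMSAP1 libraries and 5.08 and 5.44 CPM in the Control libraries. The 3 groups did not overlap, and the libraries of each group lay close together. The log2 fold change of DUSP8 was 1.02 ± 0.13 in siRAB3IP against Control, with an edgeR adjusted p of 0.000417, and it stayed past the threshold whichever library was left out. Against the same Control libraries siCAMSAP1 gave 0.78 ± 0.13, with an edgeR adjusted p of 0.0147. The siCAMSAP1 call did not hold without siCAMSAP1 replicate 2, when DUSP8 changed by 0.76 with an edgeR adjusted p of 0.0690. DUSP8 was 0.24 ± 0.13 higher on the log2 scale in siRAB3IP than in siCAMSAP1, a difference that did not pass (edgeR adjusted p 0.290). Its promoter window, printed above, holds 2 full cyclic AMP response elements, and a link between them and its level was not tested.

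DUSP10 (ENSG00000143507, chromosome 1, 221874766 to 221915518) encodes MKP-5, which acts on JNK and p38 and spares ERK. It had 8.96 and 7.43 CPM in the siRAB3IP libraries, 4.82 and 4.42 CPM in the siCAMSAP1 libraries and 5.48 and 5.20 CPM in the Control libraries. Both siRAB3IP libraries were above all others, and both siCAMSAP1 libraries below both Control libraries. The log2 fold change of DUSP10 was 0.62 ± 0.15 in siRAB3IP against Control, with an edgeR adjusted p of 0.0200, and -0.21 ± 0.16 in siCAMSAP1 against Control, with an edgeR adjusted p of 0.674. Between the knockdowns DUSP10 was higher in siRAB3IP by 0.83 ± 0.16, with an edgeR adjusted p of 0.00515. The call against Control did not hold without siRAB3IP replicate 1 (0.48, edgeR adjusted p 0.176) or without Control replicate 2 (0.58, 0.0890), and the call against siCAMSAP1 did not hold without siRAB3IP replicate 1 (0.68, 0.0559).

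**Figure D2:**
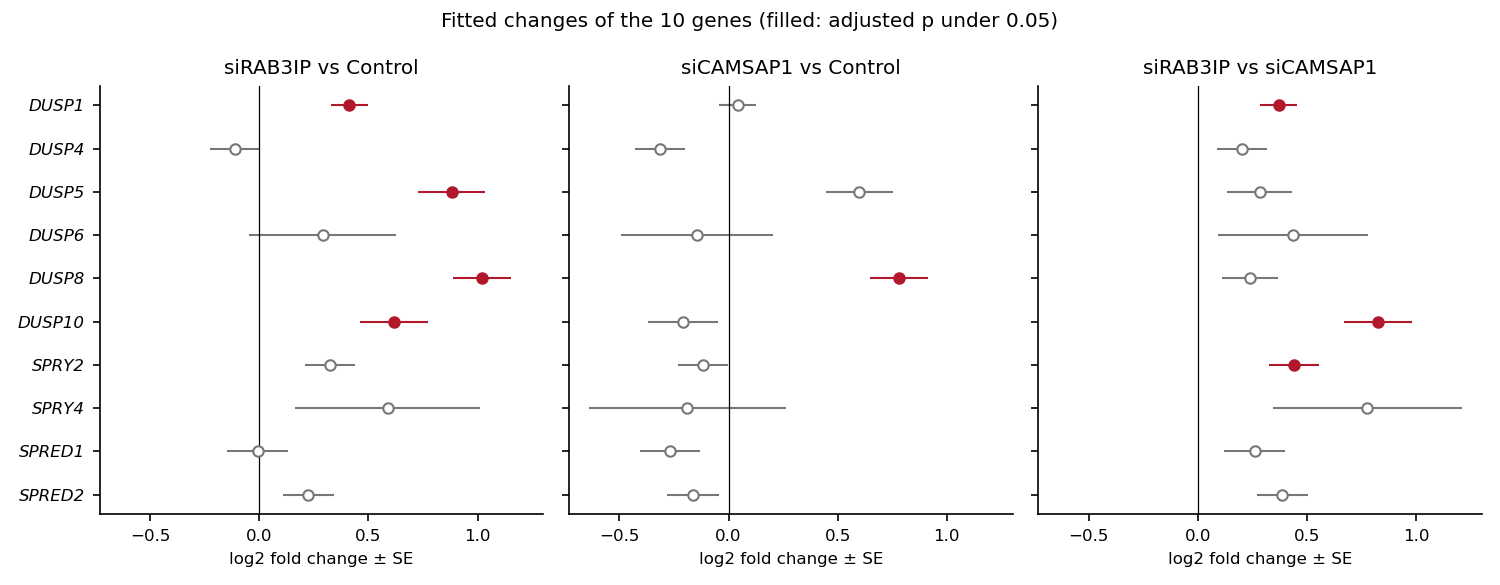
Log2 fold change of each gene with its standard error (bars) in siRAB3IP against Control, siCAMSAP1 against Control and siRAB3IP against siCAMSAP1, 2 libraries a group. Filled points passed an edgeR adjusted p of 0.05; in the right panel all 10 points lie above 0, of which DUSP1, DUSP10 and SPRY2 are filled.

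SPRY2 was higher in siRAB3IP than in siCAMSAP1, and neither Sprouty gene passed the test against Control. SPRY2 (ENSG00000136158, chromosome 13, 80910111 to 80915086) encodes an inhibitor of growth factor signalling through RAS. It had 15.3 and 17.1 CPM in the siRAB3IP libraries, 11.5 and 12.4 CPM in the siCAMSAP1 libraries and 12.5 and 13.4 CPM in the Control libraries. The groups did not overlap, with siRAB3IP above Control and siCAMSAP1 below it. The log2 fold changes of SPRY2 against Control, 0.32 ± 0.11 in siRAB3IP and -0.12 ± 0.12 in siCAMSAP1, did not pass (edgeR adjusted p 0.0859 and 0.760). With the replicate block the siRAB3IP change passed (0.32, edgeR adjusted p 0.0126). Between the knockdowns SPRY2 was higher in siRAB3IP by 0.44 ± 0.11, with an edgeR adjusted p of 0.0286. This call was lost without any 1 of the 4 libraries compared, at 0.36 without siRAB3IP replicate 2, 0.40 without siCAMSAP1 replicate 1, 0.49 without siCAMSAP1 replicate 2 and 0.52 without siRAB3IP replicate 1, with edgeR adjusted p of 0.224, 0.171, 0.0682 and 0.0545.

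SPRY4 (ENSG00000187678, chromosome 5, 141689992 to 141706020), another Sprouty gene that growth factor signalling induces, was the lowest of the 10. It had 0.899 and 1.12 CPM in the siRAB3IP libraries, 0.309 and 0.864 CPM in the siCAMSAP1 libraries and 0.535 and 0.798 CPM in the Control libraries. The siRAB3IP libraries were the highest, while the siCAMSAP1 libraries lay on either side of Control. Its log2 fold changes were 0.59 ± 0.43 in siRAB3IP, -0.19 ± 0.45 in siCAMSAP1 and 0.78 ± 0.43 between the knockdowns, and none passed (edgeR adjusted p 0.425, 0.918 and 0.314).

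SPRED1 (ENSG00000166068, chromosome 15, 38544527 to 38649450), the gene mutated in Legius syndrome, did not pass the test in any comparison. It had 17.4 and 18.0 CPM in the siRAB3IP libraries, 12.7 and 16.8 CPM in the siCAMSAP1 libraries and 15.9 and 19.6 CPM in the Control libraries. The Control libraries enclosed the siRAB3IP ones, and siCAMSAP1 overlapped Control. The log2 fold changes of SPRED1 were -0.01 ± 0.14 in siRAB3IP, -0.27 ± 0.14 in siCAMSAP1 and 0.26 ± 0.14 between the knockdowns (edgeR adjusted p 0.980, 0.477 and 0.290). With the replicate block the difference between the knockdowns passed (0.27, edgeR adjusted p 0.0460).

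SPRED2 (ENSG00000198369, chromosome 2, 65537985 to 65659771) encodes a related inhibitor of RAF activation. It had 15.8 and 14.7 CPM in the siRAB3IP libraries, 12.3 and 11.05 CPM in the siCAMSAP1 libraries and 13.6 and 12.5 CPM in the Control libraries. As with SPRY2, the groups did not overlap, with siRAB3IP above and siCAMSAP1 below Control. The log2 fold changes of SPRED2 were 0.22 ± 0.12 in siRAB3IP and -0.16 ± 0.12 in siCAMSAP1 against Control (edgeR adjusted p 0.247 and 0.651). Between the knockdowns SPRED2 was 0.39 ± 0.12 higher in siRAB3IP and missed the threshold (edgeR adjusted p 0.0543). The value was also 0.39 without Control replicate 1 or Control replicate 2, and the difference passed in those fits. It did not pass when a siRAB3IP or siCAMSAP1 library was left out, at 0.32 to 0.47. With the replicate block the difference passed (0.39, edgeR adjusted p 0.00412), as it did under some other settings given below.

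The arrangement of the libraries can be read across the 10 genes. Against Control, 8 genes had both siRAB3IP libraries above both Control libraries and 0 had both below, where 25.9% and 27.8% of tested genes did so. For siCAMSAP1 against Control, DUSP5 and DUSP8 had both libraries above, and DUSP4, DUSP10, SPRY2 and SPRED2 had both below, where the shares of all genes were 20.6% and 20.9%. All 10 genes had both siRAB3IP libraries above both siCAMSAP1 libraries, where 25.8% of tested genes did so and 26.4% had both below. With CPM of total fragments, a scaling chosen after seeing the data, 7 in place of 8 genes lay above Control in siRAB3IP, since DUSP6 then overlapped Control, and the other counts were the same. The genes were chosen with results of these libraries known, so these counts describe them and test nothing.

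The authors' deposited tables, which list 2192 genes for siRAB3IP and 474 for siCAMSAP1, hold some of the same genes. In the authors' deposited table for siRAB3IP, DUSP8 had a log2 fold change of 1.03 (SE 0.217), DUSP5 0.90 (0.213) and DUSP1 0.42 (0.0948), with adjusted p of 6.64e-05, 0.000598 and 0.000290. In the authors' deposited table for siCAMSAP1, DUSP8 had 0.79 (0.222) with an adjusted p of 0.0159. DUSP10, called here in siRAB3IP, is in neither of the authors' deposited tables.

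The other 4 dual-specificity MAPK phosphatases complete the family by class. The classes are textbook ones, and their counts were taken after the values were seen. In the class directed at JNK and p38, DUSP16, which encodes MKP-7, had 51.8 and 50.5 CPM in the siRAB3IP libraries, 42.1 and 44.5 CPM in the siCAMSAP1 libraries and 39.0 and 41.0 CPM in the Control libraries. DUSP16 changed by 0.35 ± 0.08 in siRAB3IP against Control (edgeR adjusted p 0.0133). All 3 genes of this class were called higher there, where 6.58% of all tested genes were. A count of so few genes, made after their values were seen, tests nothing about the class. The DUSP10 call was lost without siRAB3IP replicate 1 or Control replicate 2, as given above. Leaving out Control replicate 1 or either siRAB3IP library ended the DUSP16 call, with values of 0.32 to 0.37. DUSP16 had 0.12 ± 0.08 in siCAMSAP1 against Control (edgeR adjusted p 0.645). DUSP2 of the nuclear class, and DUSP7 and DUSP9 of the cytoplasmic ERK-selective class with DUSP6, had log2 fold changes of 0.28, 0.03 and -0.09 in siRAB3IP against Control and did not pass (edgeR adjusted p 0.587, 0.919 and 0.755). Among the remaining Sprouty and SPRED genes, edgeR, DESeq2 and limma-voom called 0 of 3 in any comparison, a list too short to set against the shares of all genes. At an unadjusted p under 0.05 edgeR gave 1, SPRY1, lower in siCAMSAP1 against Control. SPRY1 averaged 8.90 ± 0.662 CPM in siRAB3IP, 8.07 ± 0.500 CPM in siCAMSAP1 and 10.6 ± 2.25 CPM in Control (SD, n = 2), while SPRY3 and SPRED3 were under 0.5 CPM in every library.

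**Figure D3:**
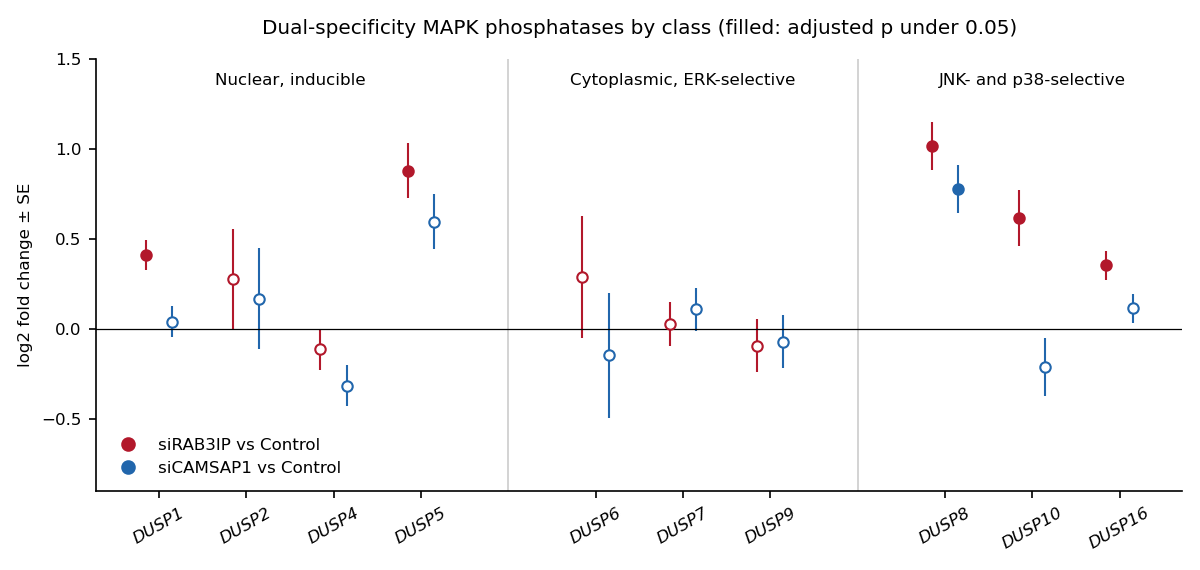
Log2 fold change against Control, with its standard error, of the 10 dual-specificity MAPK phosphatases in 3 classes, siRAB3IP to the left of siCAMSAP1 for each gene. Filled points passed an edgeR adjusted p of 0.05: DUSP1, DUSP5, DUSP8, DUSP10 and DUSP16 in siRAB3IP, and DUSP8 in siCAMSAP1.

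The genes around the feedback regulators were read from lists of the pathway. Of 8 small atypical phosphatases tested, DUSP3, whose product VHR acts on ERK and JNK, was the one called. It rose by 0.61 ± 0.08 in siRAB3IP and by 0.50 ± 0.08 in siCAMSAP1 against Control (edgeR adjusted p 0.000481 and 0.0116). Of all tested genes, 6.58% were called higher in siRAB3IP and 0.519% in siCAMSAP1. The siCAMSAP1 call of DUSP3 did not hold without siCAMSAP1 replicate 2 (0.50, edgeR adjusted p 0.0537). DUSP3 averaged 262 ± 14.1 CPM in siRAB3IP, 242 ± 0.571 CPM in siCAMSAP1 and 171 ± 12.7 CPM in Control (SD, n = 2).

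Of 23 receptor tyrosine kinases and ligands tested, 4 rose and 1 fell in siRAB3IP, where 6.58% of all tested genes were called higher and 5.38% lower. DESeq2 called 4 higher and 1 lower, and limma-voom 3 higher and 1 lower. The 4 that rose by edgeR were ligands: HBEGF and TGFA, which bind the EGF receptor, and FGF1 and FGF2. The 4 called higher by DESeq2 did not include TGFA or FGF1. TGFA was low, with a mean of 2.23 CPM in siRAB3IP and 1.20 CPM in Control (log2 fold change 0.89 ± 0.27). FGF1 was lower still, with 1.21 CPM in siRAB3IP and 0.187 CPM in Control (log2 fold change 2.65 ± 0.53). HBEGF averaged 17.9 ± 1.55 CPM in siRAB3IP, 12.7 ± 1.03 CPM in siCAMSAP1 and 9.35 ± 0.555 CPM in Control, with a log2 fold change of 0.94 ± 0.12 in siRAB3IP against Control (edgeR adjusted p 0.000403). FGF2 changed by 0.33 ± 0.09 and the receptor gene FGFR3 by -0.37 ± 0.10 (edgeR adjusted p 0.0359 and 0.0275). In siCAMSAP1, 0 rose by edgeR, DESeq2 or limma-voom (3 at an unadjusted p under 0.05), and FGF9 fell by 0.93 on the log2 scale. The shares of all tested genes there were 0.519% higher and 0.542% lower, so the count of 0 is no result about the list. These shares are at the adjusted p and are no measure for the 3 genes at the unadjusted p. TGFA, FGF1 and FGF9 are named after their values were seen. The calls of FGF2 and FGFR3 did not hold without Control replicate 1 or either siRAB3IP library, nor that of FGF2 without Control replicate 2, with values of 0.32 to 0.35 for FGF2 and -0.41 to -0.21 for FGFR3, whereas HBEGF held in all 6 such fits. TGFA lost its call without any 1 of the siRAB3IP and Control libraries (0.77 to 1.03 over the 6 fits), FGF1 without siRAB3IP replicate 2 (1.90 to 3.46) and FGF9 without Control replicate 2 or either siCAMSAP1 library (-1.08 to -0.80). TGFA also lost its call with limma-voom (0.90, adjusted p 0.0588), DESeq2 (0.91, adjusted p 0.0654) and upper-quartile scaling (0.87, adjusted p 0.0550), and FGF9 in the fit of the compared groups alone (-0.94, adjusted p 0.0505). DESeq2 gave FGF1 no adjusted p.

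Within the RAS-RAF-MEK-ERK cascade 3 of 31 genes rose and 3 fell in siRAB3IP, counts near the 6.58% higher and 5.38% lower of all tested genes and so no result about the cascade as a whole. MAP2K1, the kinase MEK1 that activates ERK, rose by 0.41 ± 0.08 (edgeR adjusted p 0.00695). The 3 that fell were CBL, a ubiquitin ligase for receptors, the adaptor GAB1 and the RAS inhibitor RASA1, which had log2 fold changes of -0.51 ± 0.10, -0.47 ± 0.12 and -0.32 ± 0.10 (edgeR adjusted p 0.00473, 0.0215 and 0.0438). PTPN11 and ELK1, named after their values were seen, rose by 0.25 ± 0.07 and 0.26 ± 0.08. The call of MAP2K1 was lost without siRAB3IP replicate 1 (0.37), that of CBL without siRAB3IP replicate 2 (-0.43), and those of GAB1 (-0.55 to -0.34) and RASA1 (-0.37 to -0.28) without Control replicate 2 or either siRAB3IP library. PTPN11 (0.22 to 0.28) and ELK1 (0.23 to 0.30) lost theirs in each of the 6 fits. RASA1 also lost its call with limma-voom (-0.33, adjusted p 0.0510), and PTPN11 and ELK1 lost theirs with the compared groups alone (adjusted p 0.0694 and 0.0544) and with upper-quartile scaling (adjusted p 0.0581 and 0.0611). In siCAMSAP1, edgeR, DESeq2 and limma-voom called 0 of 31, where 0.519% of all tested genes were called higher and 0.542% lower. That count is near these shares and so no result about the cascade. An unadjusted edgeR p under 0.05 was found for 6, and the shares above, at the adjusted p, are no measure for that count.

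Of 30 listed genes of the transcriptional output of ERK, 6 rose, 1 fell and 23 did not pass in siRAB3IP, where 6.58% of all tested genes were called higher and 5.38% lower. In siCAMSAP1, 1 rose, 1 fell and 28 did not pass, where the shares were 0.519% and 0.542%. IER3, an immediate-early gene, rose by 1.02 ± 0.10 in siRAB3IP and by 0.74 ± 0.10 in siCAMSAP1 against Control (edgeR adjusted p 5.75e-05 and 0.00325). The AP-1 genes FOSL1 and JUN rose by 1.002 ± 0.18 and 0.57 ± 0.14 in siRAB3IP (edgeR adjusted p 0.00287 and 0.0241), while CCND1, the cyclin of G1, fell by 1.18 on the log2 scale, to 51.3 ± 0.887 CPM in siRAB3IP and 115 ± 1.52 CPM in siCAMSAP1, against 116 ± 7.62 CPM in Control. FOSB, JUNB and ELF3, named after their values were seen, were the other genes that rose in siRAB3IP, and ETV1, likewise, fell by 1.39 on the log2 scale in siCAMSAP1. The call of JUN did not hold once siRAB3IP replicate 1 (0.37) or Control replicate 2 (0.45) was removed, and IER3, FOSL1 and CCND1 kept theirs in all 6 such fits. FOSB (1.10 to 1.67 over the fits) lost its call without siRAB3IP replicate 1, ELF3 (0.58 to 1.04) without Control replicate 2 or either siRAB3IP library, JUNB (0.30 to 0.79) without siRAB3IP replicate 1, Control replicate 2 or either siCAMSAP1 library, and ETV1 (-1.86 to -1.05) without siCAMSAP1 replicate 1 or Control replicate 2. The ETV1 call was also lost with limma-voom (-1.42, adjusted p 0.0618) and with the compared groups alone (-1.40, adjusted p 0.0828), and that of JUNB with upper-quartile scaling (0.54, adjusted p 0.0538).

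In the p38 and JNK cascade, 3 of 26 genes rose and 1 fell in siRAB3IP, and 0 rose and 2 fell in siCAMSAP1. The shares of all tested genes were 6.58% higher and 5.38% lower in siRAB3IP, near those of the list, and 0.519% and 0.542% in siCAMSAP1. GADD45B and GADD45A, stress-induced activators of the kinase MAP3K4, rose by 1.31 ± 0.25 and 0.67 ± 0.10 in siRAB3IP, and MAP2K3, a kinase of p38, by 0.52 ± 0.10. MAP2K6, the other main p38 kinase, fell by 0.89 on the log2 scale. In siCAMSAP1 the kinases MAP2K4 and MAP3K4 fell by 0.39 and 0.37 on the log2 scale (edgeR adjusted p 0.0412 and 0.0491). The call of GADD45B was lost without either Control or either siCAMSAP1 library (1.07 to 1.61) and with no filter on low counts (1.32), and that of MAP2K6 without siRAB3IP replicate 1 (-0.57) or Control replicate 2 (-0.80). With a library left out, MAP2K4 kept its call only without siCAMSAP1 replicate 1 and MAP3K4 only without Control replicate 1, with values of -0.42 to -0.30 and -0.39 to -0.35 where it was lost. With the compared groups alone MAP2K4 had an adjusted p of 0.0801 and MAP3K4 one of 0.0702, and MAP3K4 also lost its call under RLE scaling (adjusted p 0.0516) and with limma-voom (adjusted p 0.0594), which called 1 gene of the list lower. DESeq2 and limma-voom also called 0 of these genes higher in siCAMSAP1. There, 5 were higher at an unadjusted edgeR p under 0.05, for which the shares at the adjusted p are no measure. Of the 21 calls of genes named by rule from the lists, 8 held whichever library was left out and 13 were lost in at least 1 such fit.

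**Figure D4:**
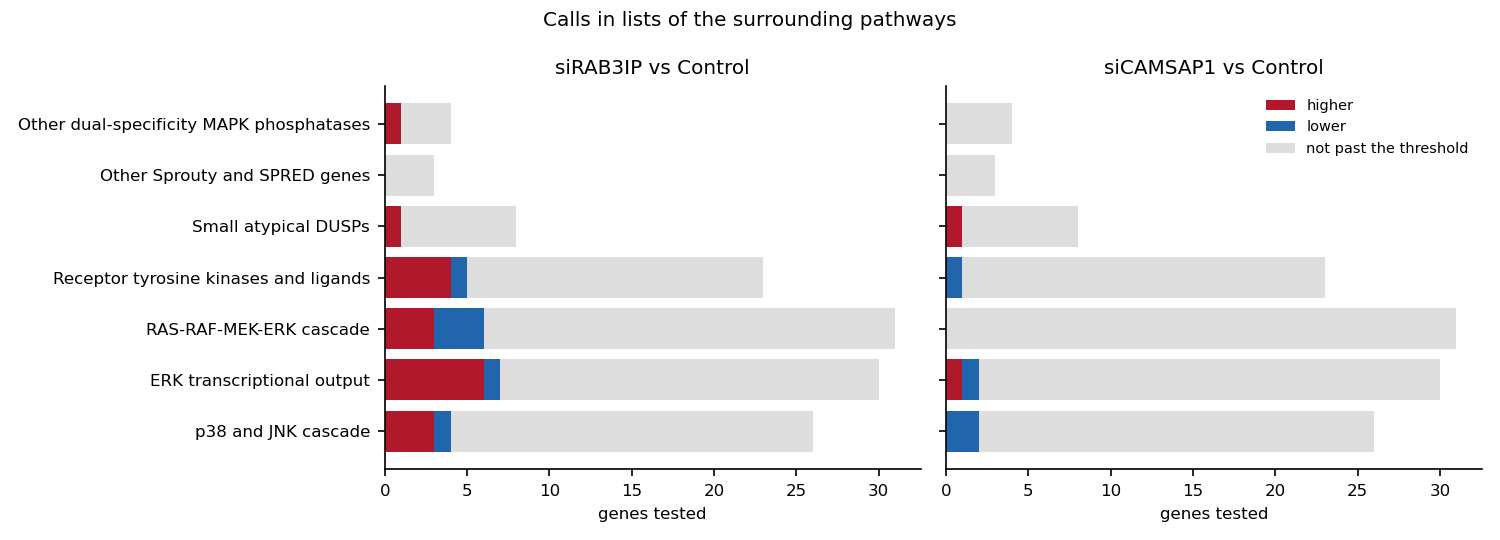
Number of genes called higher (red), called lower (blue) and not past the threshold (grey) in 7 lists around the feedback regulators, for siRAB3IP and siCAMSAP1 against Control (edgeR adjusted p under 0.05; horizontal axis, genes tested). In siRAB3IP the ERK output list holds the most calls, 6 higher and 1 lower of 30.

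The genes whose pattern over the 6 libraries came nearest to the leading members were sought among 11573 genes, by the root mean square difference of log2 CPM centred over the libraries. Nearest to DUSP8 were PRRG4 at 0.0795, IER3 at 0.0874 and SLC16A9 at 0.0930. PRRG4 averaged 57.2 ± 0.980 CPM in siRAB3IP, 42.8 ± 0.610 CPM in siCAMSAP1 and 26.8 ± 0.294 CPM in Control. SLC16A9 averaged 28.5 ± 0.420 CPM in siRAB3IP, 26.7 ± 1.89 CPM in siCAMSAP1 and 15.3 ± 0.871 CPM in Control. Nearest to DUSP5 were EMP3 at 0.0683, SMPD1 at 0.0691 and MICALL2 at 0.0768. EMP3 averaged 27.3 ± 0.187 CPM in siRAB3IP, 20.8 ± 2.75 CPM in siCAMSAP1 and 15.4 ± 2.62 CPM in Control. The points share libraries, scaling and depth, so these distances describe likeness in 6 libraries.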

How the data were processed

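Poly(A) RNA libraries were made with a TruSeq RNA kit, per the labels' protocols. The count table was made by the authors with featureCounts 1.6.0, per the file headers, as fragments per gene on hg19 without a strand setting, after alignment with STAR, per the submitters' processing notes. Reads of overlapping genes could not be split by strand, but no exon base of the 10 genes was shared with another gene of the table. The deposited signal columns are counts the authors divided by a size factor per library, and the log2 fold changes, standard errors and adjusted p-values in the authors' deposited tables come from DESeq2, per the submitters' processing notes.

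From the counts, CPM were scaled with TMM factors and FPKM used the deposited exon length. edgeR 4.0.16 in R 4.3.3 fitted 1 quasi-likelihood model (robust, 3 residual degrees of freedom) to 22331 genes left by its default filter, in 3 groups of 2 libraries, with Benjamini-Hochberg adjustment over all of them at 0.05. Errors after log2 fold changes are standard errors, for edgeR the size of the fold change divided by the square root of the F statistic. Errors after mean CPM are SD of the 2 libraries of a group. Alternatives were other scalings and filters, fits of 2 groups only, a block for the replicate number, DESeq2 1.42.0, voom in limma 3.58.1 (limma-voom), each library left out and grouping by record title. The fits were tested on simulated counts. The limit of a count of 0, 3 fragments, was 0.0726 to 0.0803 CPM and covers counting error only. Symbols were found for 52526 genes, 52181 of them in a gene name table and the rest in GENCODE, and 21724 genes had no fragment.

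Named genes were the 10 genes, up to 4 called genes of at least 5 CPM per list and knockdown, the 3 genes nearest in pattern to the 2 genes of smallest adjusted p, and the host genes; others are marked where they occur. The 10 genes and the lists were chosen with earlier results of these data known. Promoter windows are RefSeq's on GRCh38.p14. Python 3.11.15, numpy 2.4.6, pandas 2.3.3 and matplotlib 3.10.9 were used.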

Additional observations from a re-analysis of the deposited data

How the results depend on the processing

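The results depended on which names the libraries carry. Each group by title joins libraries that the deposited tables place in different groups. With the groups taken from the titles of the sample records, edgeR called 0 genes and 0 of the 10 genes in each of the 3 comparisons (330, 437 and 456 genes at an unadjusted p under 0.05, and 0, 1 and 0 calls by DESeq2, in the order siRAB3IP against Control, siCAMSAP1 against Control and siRAB3IP against siCAMSAP1), and the direction of many changes turned. In siRAB3IP against Control the log2 fold changes under the titles were -0.29 for DUSP1, -0.27 for DUSP5, -0.16 for DUSP6, -0.14 for DUSP8, -0.53 for DUSP10, -0.16 for SPRY2, -0.36 for SPRY4 and -0.25 for SPRED2. In siCAMSAP1 against Control the log2 fold changes under the titles were -0.067 for DUSP1, 0.11 for DUSP6, 0.33 for DUSP8, 0.079 for SPRY2, 0.46 for SPRY4 and 0.060 for SPRED1. In siRAB3IP against siCAMSAP1 the log2 fold changes under the titles were -0.22 for DUSP1, -0.35 for DUSP5, -0.28 for DUSP6, -0.47 for DUSP8, -0.24 for DUSP10, -0.24 for SPRY2, -0.83 for SPRY4, -0.10 for SPRED1 and -0.053 for SPRED2. Of the other named genes in siRAB3IP against Control, those that turned had -0.13 for DUSP16, -0.099 for DUSP3, -0.46 for HBEGF, -0.12 for FGF2, 0.26 for CBL, 0.23 for GAB1, -0.15 for MAP2K1, 0.10 for RASA1, 0.54 for CCND1, -0.27 for IER3, -0.64 for FOSL1, -0.46 for JUN, -0.68 for GADD45B, 0.29 for MAP2K6, -0.43 for GADD45A, -0.30 for MAP2K3, -0.62 for DUSP2, -0.043 for DUSP7, 0.24 for SPRY1, -0.997 for SPRY3, 0.36 for SPRED3, -0.079 for RAB3IP and -0.094 for CAMSAP1. Of the other named genes in siCAMSAP1 against Control, those that turned had -0.24 for DUSP2, -0.18 for DUSP7, 0.031 for RAB3IP and -0.027 for CAMSAP1. The cause of the disagreement between the names was not tested.

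Among the calls of the 10 genes, the 4 in siRAB3IP against Control, the 1 in siCAMSAP1 against Control and the 3 between the knockdowns stayed past the threshold under RLE and upper-quartile scaling, no filter, a mean of at least 5 CPM, the compared groups alone, the replicate block, DESeq2 and limma-voom. Further genes passed under some of these settings. In siCAMSAP1 against Control, DUSP5 passed with no filter (0.60), the replicate block (0.60) and DESeq2 (0.60), for 2, 3 and 2 called of the 10, and DUSP4 passed with the replicate block (-0.32). In siRAB3IP against Control, SPRY2 passed with the replicate block (0.32), as did the host gene CAMSAP1 (0.16). Between the knockdowns, SPRED2 passed with no filter (0.40), a mean of at least 5 CPM (0.39), the compared groups alone (0.39) and the replicate block (0.39), and SPRED1 with the replicate block (0.27), for 5 called of the 10. SPRED1 in siRAB3IP against Control, near 0, had 0.0022 under RLE scaling and 0.0026 with DESeq2, and CAMSAP1 in siCAMSAP1 had -0.0049 under upper-quartile scaling. Over all genes, siCAMSAP1 against Control gave 676 calls with no filter, 152 with the compared groups alone and 388 with DESeq2, against 237. With the replicate block the calls were 5590 in siRAB3IP against Control, 1643 in siCAMSAP1 against Control and 4829 between the knockdowns. The deviations of libraries of the same number were weakly correlated. The correlations were 0.148 for siRAB3IP and Control, 0.150 for siCAMSAP1 and Control and 0.110 for siRAB3IP and siCAMSAP1. Each comparison has only 2 pairs, and the labels do not say whether a number marks a shared batch. A shared batch was not tested, and the calls that need the replicate block depend on it.

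Leaving out each library in turn moved the counts of calls. In siRAB3IP against Control it gave 1160 to 2675 called genes and 2 to 4 of the 10. In siCAMSAP1 against Control it gave 86 to 425 called genes and 0 to 2 of the 10. In siRAB3IP against siCAMSAP1 it gave 719 to 2652 called genes and 0 to 4 of the 10. Its log2 fold changes in siRAB3IP against Control ran from 0.31 to 0.51 for DUSP1, -0.25 to 0.012 for DUSP4, 0.48 to 0.75 for DUSP10, -0.15 to 0.15 for SPRED1, -0.13 to 0.84 for DUSP2, -0.14 to 0.18 for DUSP7 and -0.31 to 0.097 for DUSP9. Its log2 fold changes in siCAMSAP1 against Control ran from -0.021 to 0.096 for DUSP1, 0.41 to 0.80 for DUSP5, -0.49 to 0.13 for DUSP6, 0.74 to 0.83 for DUSP8, -1.11 to 0.36 for SPRY4, -0.25 to 0.73 for DUSP2, -0.27 to 0.10 for DUSP9, -0.12 to 0.52 for SPRY3 and -0.090 to 0.034 for RAB3IP. Its log2 fold changes in siRAB3IP against siCAMSAP1 ran from 0.27 to 0.47 for DUSP1, 0.68 to 0.96 for DUSP10, 0.36 to 0.52 for SPRY2 and 0.32 to 0.47 for SPRED2. Without siRAB3IP replicate 1, 2 of the 10 were called in siRAB3IP against Control and 0 between the knockdowns, 1 was called between the knockdowns without siCAMSAP1 replicate 1, and 0 were called in siCAMSAP1 against Control without siCAMSAP1 replicate 2. A fit that leaves out a library has 1 lone sample in a group, assumed to vary like the others. DUSP6, with 23 to 40 fragments a library, and SPRY4, with 12 to 42, are limited by depth. Neither has a value under a mean of at least 5 CPM, which removes them.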
